A study of Mus musculus with 10 samples.

Results

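The contractile genes of smooth and cardiac muscle were followed through the differentiation of mouse embryonic stem cells (ESC) into embryoid bodies (EB) that contain primordial germ cell-like cells (PGCLC). The group held 8 genes, Acta2, Tagln, Myl9, Cnn1, Actc1, Tpm1, Tpm2 and Myl7. All 8 were present in both tables of unique molecular identifier (UMI) counts, among 27998 genes in the table of the E14Tg2a line and 32285 genes in the table of the R1 line. Acta2 was picked for its fall from wild-type (WT) to mutant d4 EB of the R1 line, among the largest falls of all genes, and the other members because they encode parts of the same contractile apparatus. The fall of Acta2 is therefore given as a description without a test and supports nothing.

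The study recorded the RNA of single cells with a droplet method that reads the 3′ end of transcripts, in 10 libraries with 1 library per condition. Naive ESC of the E14Tg2a line (2i ESC) were kept in serum-free medium with LIF and the inhibitors PD0325901, against MEK, and CHIR99021, against GSK3β, whereas S+L ESC were kept in serum and LIF. From 2i ESC, epiblast-like cells (EpiLC) were made with Activin A, bFGF and KSR and sampled on day 1, day 2 and day 3 (d1, d2 and d3 EpiLC), and epiblast stem cells (EpiSC) were made by passaging in Activin A and bFGF. The d2 EpiLC were aggregated with BMP4, SCF, LIF and EGF, and the aggregates were sampled on day 2 and day 4 (d2 EB and d4 EB). In the R1 line, d4 EB were made in the same way from WT cells and from Mll3/4 dCD cells (dCD), a clonal line in which the catalytic domains of the H3K4 methyltransferases MLL3 and MLL4 are inactive while the proteins are kept. The transcripts of Kmt2c and Kmt2d, which encode them, are thus kept as well and do not check the genotype; Kmt2c stood at 47.5 CPM (UMIs of the gene per 1000000 UMIs of the library) in WT and 53.8 CPM in dCD, and Kmt2d at 29.4 and 29.1 CPM. Both genotypes were single libraries, so genotype, clone and library cannot be told apart.

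The E14Tg2a libraries held 227 to 537 cells and 8757170 to 14649279 UMIs. The WT library held 1416 cells with 20586629 UMIs and a median of 13187.5 UMIs per cell, and the dCD library held 1699 cells with 22887974 UMIs and a median of 11751 UMIs per cell. Levels are CPM of the pooled library, with an exact 95% Poisson interval that covers counting error only. A gene was called higher or lower where its CPM differed at least 2-fold between libraries that together held at least 100 of its UMIs. No difference has a replicate check and no p-value is given. The tables of the E14Tg2a and R1 lines were made separately and with different kit versions, so levels are compared within a table only.

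Muscle contracts when myosin heads pull on actin filaments. In smooth muscle this is switched on through phosphorylation of the myosin regulatory light chain, and in cardiac muscle through troponin and tropomyosin on the actin filament. Many of the genes involved are targets of serum response factor (SRF), which binds the CArG box together with myocardin or with related cofactors that respond to the state of the actin cytoskeleton, and several of them are also used by non-muscle cells that build stress fibres.

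Among the actins, Acta2 encodes smooth muscle α-actin and lies at chr19:34241090-34255590 on the minus strand of GRCm38, and Actc1 encodes cardiac α-actin and lies at chr2:114047282-114053548 on the minus strand. The actin-binding proteins are Tagln, which encodes transgelin (SM22α) at chr9:45929619-45936058 on the minus strand, and Cnn1, which encodes calponin 1 at chr9:22099216-22109630 on the plus strand. Tropomyosins, which lie along the actin filament, come from Tpm1 at chr9:67022590-67049406 and Tpm2 at chr4:43514711-43523765, both on the minus strand. The myosin regulatory light chains are Myl9, of smooth muscle and non-muscle myosin, at chr2:156775420-156781658 on the plus strand, and Myl7, of the atrium and early heart, at chr11:5896637-5898782 on the minus strand. The Tagln locus overlaps Pcsk7 and the antisense gene Gm48529, and the Actc1 locus overlaps A530058N18Rik, each on the opposite strand. Actins, tropomyosins and myosin light chains have close paralogs, so how reads were shared between near-identical copies is uncertain.

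Acta2 was nearly absent before d3 EpiLC. It had 0 UMIs in 2i ESC, which allows up to 0.343 CPM, and stood at 0.0990 CPM in S+L ESC, 1.09 CPM in d1 EpiLC, 0.717 CPM in d2 EpiLC and 0.705 CPM in EpiSC. It reached 20.9 CPM (18.6 to 23.5) in d3 EpiLC, 11.5 CPM (9.86 to 13.4) in d2 EB and 47.5 CPM (43.2 to 52.0) in d4 EB. The intervals of the last 3 libraries did not overlap each other or those of the others, whereas d1 EpiLC, d2 EpiLC and EpiSC could not be separated beyond counting error.

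Actc1, the cardiac actin, had 0 UMIs in 2i ESC, d1 EpiLC, EpiSC and S+L ESC, with upper limits of 0.343, 0.273, 0.235 and 0.297 CPM. Its highest level was 11.1 CPM (9.41 to 13.0) in d3 EpiLC, followed by 3.85 CPM in d4 EB, 2.12 CPM in d2 EB and 1.08 CPM in d2 EpiLC. The intervals of d2 EB and d2 EpiLC overlapped, whereas the ratio of d4 EB over d2 EB was 1.82 (1.10 to 3.03), with an interval above 1.

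Tagln, an early marker of smooth muscle differentiation, stood at 0.457 CPM in 2i ESC, 0.495 CPM in S+L ESC and 0.546 CPM in d1 EpiLC, values that overlapped within counting error. It then stood at 8.34 CPM in d2 EpiLC, 93.2 CPM (88.2 to 98.3) in d3 EpiLC and 2.12 CPM in EpiSC. In the aggregates it was at 59.7 CPM (55.8 to 63.8) on day 2 and 57.9 CPM (53.2 to 62.9) on day 4, so d2 EB and d4 EB were not separated. Cnn1, whose product binds actin and dampens myosin activity, had 0 UMIs in 2i ESC, which allows up to 0.343 CPM, and 1.09 CPM in S+L ESC. It stood at 0.909 CPM in d1 EpiLC, 10.7 CPM in d2 EpiLC, 33.8 CPM (30.8 to 37.0) in d3 EpiLC, 3.29 CPM in EpiSC, 3.00 CPM in d2 EB and 2.50 CPM in d4 EB. The 2 actin-binding members thus shared the peak in d3 EpiLC, but Cnn1 was as low in both EB libraries as in EpiSC.

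The tropomyosins were present at every stage. Tpm1 stood at 55.3 CPM in 2i ESC, 55.4 CPM in S+L ESC, 87.7 CPM in d1 EpiLC, 189 CPM in d2 EpiLC, 842 CPM (827 to 857) in d3 EpiLC and 191 CPM in EpiSC. In the aggregates it was at 749 CPM (735 to 764) on day 2 and 342 CPM (331 to 354) on day 4, a lower level at the later time. Tpm2 moved differently, with 13.0 CPM in 2i ESC, 23.8 CPM in S+L ESC, 15.5 CPM in d1 EpiLC, 69.8 CPM in d2 EpiLC, 59.3 CPM in d3 EpiLC and 31.2 CPM in EpiSC. It stood at 28.9 CPM (26.2 to 31.8) in d2 EB and at its highest, 84.8 CPM (79.0 to 90.8), in d4 EB. Of the 8 members, Tpm2 and Acta2 were the 2 with their highest level in d4 EB.

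The light chains also parted from each other. Myl9 stood at 0.114 CPM in 2i ESC, 1.58 CPM in S+L ESC, 3.64 CPM in d1 EpiLC, 17.1 CPM in d2 EpiLC, 52.2 CPM (48.5 to 56.1) in d3 EpiLC and 1.57 CPM in EpiSC, with 3.34 CPM in d2 EB and 6.66 CPM in d4 EB. Myl7 was the 1 member with its highest level in S+L ESC, at 19.1 CPM (16.5 to 22.0). It stood at 14.4 CPM in 2i ESC, 3.55 CPM in d1 EpiLC, 12.9 CPM in d2 EpiLC, 10.2 CPM in d3 EpiLC, 0.627 CPM in EpiSC, 6.35 CPM in d2 EB and 6.66 CPM in d4 EB. In d4 EB, 1 cell carried 29 of the 64 Myl7 UMIs, so the level of that library rests largely on a single cell. The peak in d3 EpiLC was shared by 5 members, Tagln, Myl9, Cnn1, Actc1 and Tpm1.

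**Figure D1:**
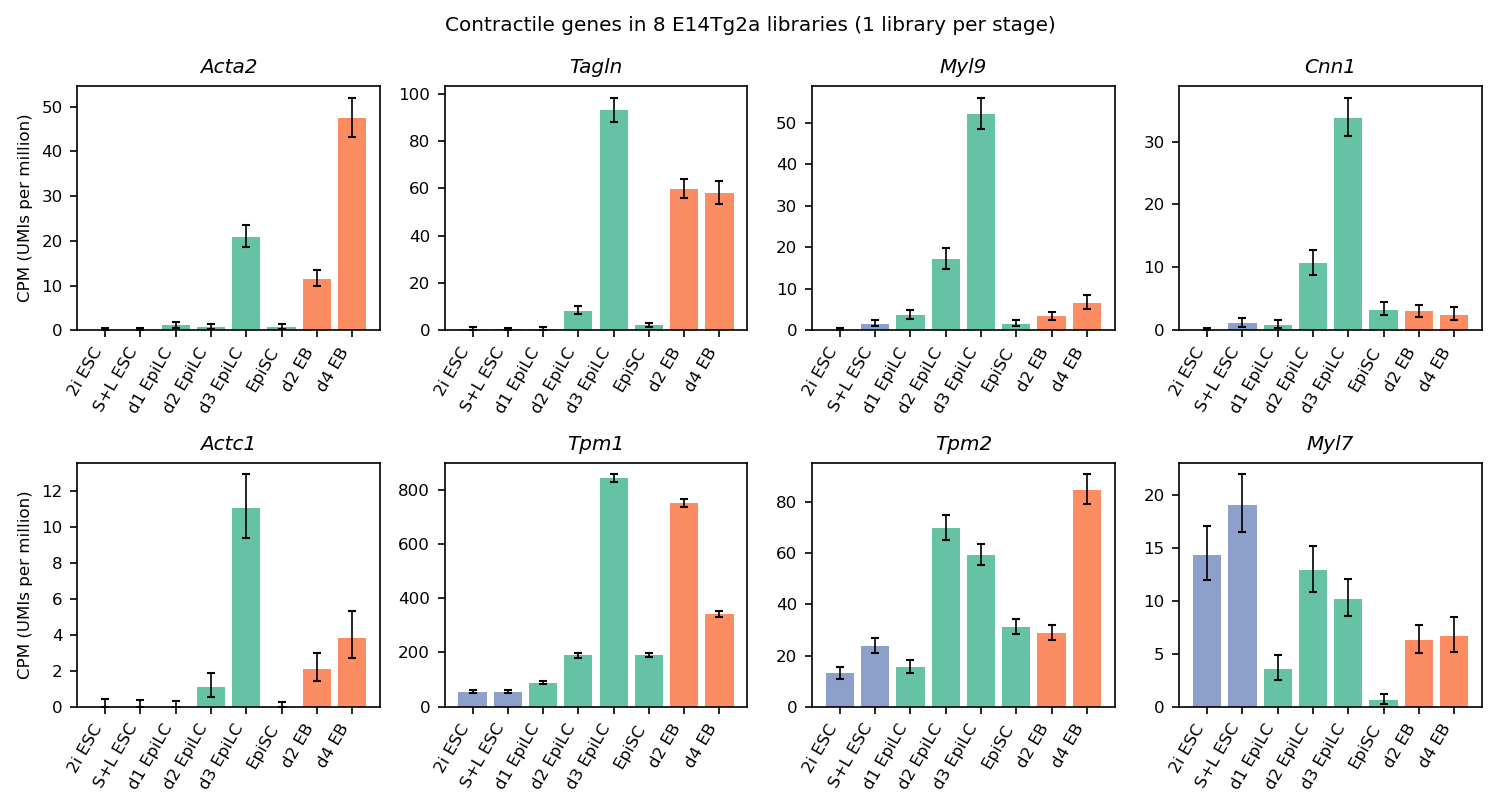
Levels of the 8 members in the E14Tg2a libraries, in CPM on linear axes that start at 0, 1 panel per gene and 1 bar per library, with error bars for the exact 95% Poisson interval. Tagln, Myl9, Cnn1, Actc1 and Tpm1 were highest in d3 EpiLC, Acta2 and Tpm2 in d4 EB (47.5 and 84.8 CPM) and Myl7 in S+L ESC (19.1 CPM).

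The step from d2 EpiLC to d2 EB asks what changed once competent cells were aggregated under germline-inducing signals. Of the 7 members with enough UMIs, 3 were higher in d2 EB, against 14.3% of the 9533 genes tested, and 4 were lower, against 9.75% of them. Acta2 was 16.1-fold higher (7.98 to 37.9), Tagln 7.16-fold higher (5.78 to 8.97) and Tpm1 3.97-fold higher (3.79 to 4.16). Other members went the other way, with the ratio of d2 EB over d2 EpiLC at 0.195 (0.140 to 0.269) for Myl9 and 0.282 (0.195 to 0.401) for Cnn1. Tpm2 fell to a ratio of 0.414 (0.366 to 0.466). Myl7 stood at 0.492 (0.375 to 0.643), close to the 2-fold limit, and with scaling by size factors it was no longer past it, which left 3 lower members. Actc1, with 12 and 31 UMIs, had too few UMIs to be tested. The median log2 ratio of the members tested was -1.02, and that of all genes tested was 0.07.

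Between d2 EB and d4 EB the set split again. Of 6 members tested, 2 were higher in d4 EB, against 9.51% of 9680 genes, and 1 was lower, against 3.52%. The higher members were Acta2, by 4.12-fold (3.44 to 4.94), and Tpm2, by 2.94-fold (2.61 to 3.31), while Tpm1 fell to a ratio of 0.457 (0.439 to 0.475). Myl9 had a ratio of 1.99 (1.35 to 2.95), just below the limit. Tagln, with a ratio of 0.969 (0.870 to 1.08), and Myl7, with 1.05 (0.751 to 1.46), had intervals that included 1, and the log2 ratio of Myl7 changed sign with the scaling, from 0.07 to -0.02 with size factors. Without the cell that held 29 Myl7 UMIs, the ratio of Myl7 was 0.576 (0.379 to 0.858). Cnn1 and Actc1 had under 100 UMIs over the pair of libraries and were not tested. The median log2 ratio was 0.53 for the members tested and 0.10 for all genes.

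Because most members peaked in d3 EpiLC, the EpiLC steps were compared as well, a choice made after seeing the data. As that peak prompted them, no count is set against other genes. From 2i ESC to d1 EpiLC, Myl7 fell to a ratio of 0.246 (0.167 to 0.355), and Tpm1 and Tpm2 had ratios of 1.59 and 1.19. From d1 to d2 EpiLC, the ratios ran from 2.15 for Tpm1 to 11.7 (6.16 to 25.1) for Cnn1 among the members with enough UMIs. From d2 to d3 EpiLC, Acta2 was 29.2-fold higher (14.6 to 68.3), followed by Tagln at 11.2-fold and Actc1 at 10.3-fold. Tpm2 and Myl7 did not follow, with ratios of 0.849 and 0.792. In EpiSC against d3 EpiLC, Tagln had a ratio of 0.0227 (0.0149 to 0.0332), Myl9 had 0.0300 and Acta2 had 0.0337, and Actc1 reached 0 UMIs, a ratio of at most 0.0212. Tpm2, at 0.526, did not reach 2-fold, but did with size factors, which moved all log2 ratios of this comparison by 0.16, with a log2 ratio of -1.09. EpiSC were dissociated with Accutase and the other cells with a different enzyme, so culture and dissociation cannot be told apart.

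Both naive and serum cultures were low for most members. Of 3 members tested between S+L ESC and 2i ESC, 0 were higher, against 6.12% of 8075 genes. Tpm2 was 1.82-fold higher in S+L ESC (1.45 to 2.30), below the limit, Myl7 1.33-fold higher, and Tpm1 was level at 55.4 and 55.3 CPM.

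Members were not spread evenly over cells. A share counts cells with a UMI and sets no limit on the cells that express the gene. To compare shares across depths, each cell was thinned to 15374 UMIs in the E14Tg2a table and 6831 UMIs in the R1 table. Acta2 was then detected in 0 of 223 cells of the 2i ESC library, where 3 cells would have been 1.35% and the exact interval reached 1.64%, and in 1.77% of d2 EpiLC (median depth 35956 UMIs). In d3 EpiLC the share was 15.9% (12.4 to 20.0), in d2 EB 12.5% (9.80 to 15.7) and in d4 EB 33.2% (28.2 to 38.6; median depth 21658 UMIs). Without thinning the shares were 26.6%, 18.2% and 42.1%. Within the EB libraries, the clusters that held most PGCLC gave the background without thinning, with Acta2 in 6.19% of 97 cells of d2 EB (median depth 26855 UMIs) and 6.00% of 50 cells of d4 EB (24798.5 UMIs), and Tagln in 14.4% and 2.00% of them. Tagln was found in 50.4% of thinned d3 EpiLC cells, but in 22.7% of d2 EB and 19.6% of d4 EB cells, although its CPM differed less between the 3 libraries. In d4 EB, the 37 cells richest in Tagln, 10% of the library, held 88.7% of the Tagln UMIs, whereas in d3 EpiLC the 40 richest cells, again 10%, held 52.8%. Tpm1 was detected in 95.2% of d2 EB and 94.0% of d4 EB cells, close to all cells of both libraries, so no cells without it could give a background.

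Cell clusters within the EB were built on variable genes without the members or the other listed genes, 113 genes in all. Members thus did not define the clusters they are described over. The genes left out were muscle and cytoskeleton genes, SRF partners and mesoderm regulators such as Hand1, immediate early SRF targets, and mural cell and fibroblast genes such as Col1a1. In d2 EB, 381 cells formed an extraembryonic mesoderm-like cluster led by Pitx1 and Hox genes, 97 a PGC-like cluster with Dppa3 and Nanog, and 59 an extraembryonic ectoderm-like cluster with Esx1 and Krt7. Tagln was concentrated in the last, with 283 CPM (262 to 306) against 20.4 CPM in the mesoderm-like and 14.3 CPM in the PGC-like cells, and these 59 cells carried 73.1% of its UMIs. Acta2 was more even, with 22.6 CPM (16.8 to 29.7) in the ectoderm-like, 11.6 CPM in the mesoderm-like and 3.00 CPM (1.37 to 5.70) in the PGC-like cluster. Tpm1 was high in both the mesoderm-like and ectoderm-like clusters, at 862 and 999 CPM, and lower in the PGC-like cells, at 209 CPM. Myl9 stood at 11.5 CPM in the ectoderm-like and 1.92 CPM in the mesoderm-like cells.

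In d4 EB of the E14Tg2a line, Acta2 and Tagln were highest in different clusters. The extraembryonic mesoderm-like cluster of d4 EB, in which Ptn and Pitx1 stood out among its 253 cells, had 76.1 CPM (68.9 to 83.9) of Acta2 and held 89.0% of its UMIs, and 55.7% of these cells carried an Acta2 UMI. The extraembryonic ectoderm-like cluster of 39 cells had 22.4 CPM of Acta2 but 222 CPM (201 to 244) of Tagln, against 25.7 CPM of Tagln in the mesoderm-like cells. Actc1 had 36 of its 37 UMIs in the mesoderm-like cluster, and Myl9 82.8% of its UMIs. Tpm1 and Tpm2 were highest in the ectoderm-like cells, at 753 and 208 CPM, against 295 and 75.5 CPM in the mesoderm-like cells. In the endothelium-like cluster of 26 cells Acta2 stood at 4.27 CPM, and Myl9 and Cnn1 had 0 UMIs, which allows up to 2.56 CPM. An unnamed cluster of 50 cells, which held all 44 PGCLC listed for d4 EB, had 2.45 CPM of Acta2.

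The PGCLC listed by barcode in the study, 91 cells of d2 EB and 44 of d4 EB, were compared with the remaining cells of each library; they are largely the same cells as in the clusters just named and are no separate evidence. In d2 EB, Acta2 stood at 2.39 CPM in PGCLC and 13.8 CPM in the remaining cells, a ratio of 0.173 (0.0683 to 0.364), and Tagln at 7.16 and 72.9 CPM, a ratio of 0.0982 (0.0605 to 0.151). In d4 EB, Acta2 had 1 UMI in PGCLC against 455 in the remaining cells, a ratio of 0.0178 (0.000450 to 0.0998), and Tagln had 0 UMIs against 556, a ratio of at most 0.0437. Tpm1 was lower but far from absent, at 209 CPM against 885 CPM in d2 EB and 124 CPM against 369 CPM in d4 EB. Myl9 and Cnn1 had ratios of 0.355 and 0.292 in d2 EB, whose intervals reached past 1 when PGCLC were taken from k-means clusters. Myl7 was not lower at either time, with ratios of 1.47 (0.889 to 2.35) in d2 EB and 0.995 (0.383 to 2.19) in d4 EB. Without the d4 EB cell with 29 Myl7 UMIs, which was no listed PGCLC, the latter was 2.02 (0.745 to 4.73).

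The comparison of WT and dCD d4 EB asks how aggregates formed when MLL3 and MLL4 lack catalytic activity. Of the 8 members, all with enough UMIs, 6 were lower in dCD, against 5.41% of the 11842 genes tested, and 1 was higher, against 7.45%. As this contrast chose Acta2, nothing is read from these counts. Acta2 fell from 264 CPM (257 to 271) in WT to 10.3 CPM (9.04 to 11.7) in dCD, from 5425 to 236 UMIs, a ratio of 0.0391 (0.0342 to 0.0446) and number 12 from the bottom of all genes tested. The cardiac actin Actc1 fell nearly as far, from 6.41 CPM (5.36 to 7.60) to 0.350 CPM (0.151 to 0.689), a ratio of 0.0545 (0.0231 to 0.111). The ratio of Actc1 rests on 132 and 8 UMIs.

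A step behind came Myl9, from 39.8 CPM (37.1 to 42.6) to 7.38 CPM (6.31 to 8.58), a ratio of 0.186 (0.156 to 0.219). Cnn1 went from 15.1 CPM to 4.33 CPM, a ratio of 0.287 (0.227 to 0.361). Tagln went from 485 CPM (475 to 494) to 141 CPM (136 to 146), a ratio of 0.290 (0.279 to 0.302). Tpm1 went from 1907 CPM (1888 to 1926) to 562 CPM (552 to 572), a ratio of 0.295 (0.289 to 0.301). The last 3 genes had nearly the same ratio although their levels were far apart. Tpm2 stood at 53.7 CPM (50.6 to 57.0) in WT and 38.1 CPM (35.6 to 40.7) in dCD, a ratio of 0.709 (0.648 to 0.776) that did not reach 2-fold. Myl7 went against the rest, from 0.534 CPM (0.267 to 0.956) to 6.16 CPM (5.19 to 7.27), 11.5-fold higher (6.25 to 23.6), with 11 and 141 UMIs. The median log2 ratio was -1.79 for the members and -0.00 for all genes.

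The same libraries were read per cell, which describes the fall that chose Acta2 once more and adds no support to it. In thinned cells, Acta2 was detected in 457 of 1366 WT cells, 33.5% (31.0 to 36.0), and in 21 of 1529 dCD cells, 1.37% (0.852 to 2.09); without thinning the shares were 38.3% and 2.12%. In WT, 6.19% of the cells of cluster 8 carried an Acta2 UMI without thinning (median depth 12558 UMIs). This cluster, described below, was PGC-like but lost that name at resolution 0.5. Cluster 7, led by Nanos3 and Dppa3, had a higher Acta2 level in WT. The share is therefore a low reference and not the background of all germ cell-like cells. Cells with at least 10 Acta2 UMIs numbered 167 in WT and 11 in dCD, and the highest cell had 83 UMIs in WT and 35 in dCD. Tagln was detected in 50.8% of WT and 16.8% of dCD cells, Tpm1 in 90.3% and 59.3%, Myl9 in 219 and 48 cells, and Tpm2 in 25.8% and 20.3%. Few dCD cells therefore carried Acta2, and a small number of them held most of its UMIs. Leaving out the 5% of cells with the highest share of member UMIs, 71 in WT and 85 in dCD, removed 37.3% of the Acta2 UMIs of WT and 95.3% of those of dCD; as Acta2 was part of that share and 36 dCD cells carried it, the loss in dCD was largely set by how the cells were picked.

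Clustering the R1 cells, again without the listed genes, put most cells of the 2 libraries into different clusters. Cluster 5, extraembryonic mesoderm-like and led by Tbx4, Pitx1 and Wnt2, held 385 WT cells and 0 dCD cells. Cluster 1, unnamed and led by Itga4, Lum and Adamts2, held 516 WT and 104 dCD cells, and cluster 6, extraembryonic ectoderm-like, held 154 and 117. Of the clusters made up mainly of dCD cells, cluster 2 held 7 WT and 497 dCD cells, cluster 3 held 24 and 453, and cluster 4, naive pluripotency-like, held 1 and 453. A cluster that is mostly 1 library may be that library and not a cell type. Names were given from marker genes only, and a name was dropped where 3 cells held over 50% of the marker UMIs, a rule added after the clusters were seen.

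In WT, Acta2 was highest in cluster 5, at 546 CPM (526 to 567), with a UMI in 67.8% of its cells, followed by cluster 1, at 361 CPM (347 to 375). It stood at 56.6 CPM in cluster 6, 10.3 CPM in cluster 7, led by Nanos3 and Dppa3, and 5.31 CPM in cluster 8, which was PGC-like but lost that name at resolution 0.5. Cluster 5 was also the main site of Actc1, with 23.2 CPM (19.2 to 27.8) and 89.4% of its UMIs, of Myl9, with 99.1 CPM, and of Cnn1, with 36.0 CPM. Tagln was spread over clusters 5, 1 and 6, at 656, 623 and 725 CPM, whereas Tpm1 was highest in cluster 6, at 3583 CPM. Cluster 5, which held 0 dCD cells, carried 51.1% of all WT Acta2 UMIs, 61.4% of those of Myl9 and 59.0% of those of Cnn1, but 33.4% of those of Tagln and 22.1% of those of Tpm1.

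Clusters 1 and 6 were the ones with at least 50 cells of both libraries, and the genotypes were compared within each of them, a choice made after seeing the data. In cluster 1, Acta2 went from 361 CPM in WT to 70.2 CPM in dCD, a ratio of 0.194 (0.157 to 0.239), and Tagln from 623 to 255 CPM, a ratio of 0.409 (0.365 to 0.456). Tpm1 had a ratio of 0.518 (0.493 to 0.544) there. Myl9, by contrast, had 39.2 CPM in WT and 38.8 CPM in dCD, a ratio of 0.990 (0.721 to 1.34), and Tpm2 58.7 and 67.2 CPM, a ratio of 1.14 (0.899 to 1.44). Of the 5 members with enough UMIs in this cluster, 2 were lower in dCD, against 3.07% of 7856 genes, and 0 were higher, against 1.59%; as over all cells, nothing is read from these counts.

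In cluster 6, the extraembryonic ectoderm-like cells, 0 of 4 members tested were lower in dCD, against 2.14% of 6826 genes, and 1 was higher, against 2.92%. Acta2 had 56.6 CPM in WT and 55.2 CPM in dCD, a ratio of 0.975 (0.775 to 1.22), and Tagln 725 and 939 CPM, a ratio of 1.30 (1.22 to 1.37). Tpm2 was higher in dCD, from 57.9 to 125 CPM, by 2.16-fold (1.80 to 2.61), a call lost at resolution 0.5 with a ratio of 1.98, whereas Tpm1 had a ratio of 0.664 (0.643 to 0.685). Below the minimum of UMIs, Myl9 stood at 7.04 CPM in WT and 26.6 CPM in dCD, and Cnn1 at 10.1 and 23.3 CPM. The fall of Acta2 was smaller within cluster 1 than over all cells, and within cluster 6 the interval included no change. In the whole dCD library 36 cells carried an Acta2 UMI and 11 had at least 10. These values therefore rest on few dCD cells, and their intervals cover counting error only. They describe the contrast that chose Acta2 and support nothing. Together these clusters held 47.3% of WT cells but 13.0% of dCD cells, and 48.0% of the Acta2 UMIs of WT but 97.0% of those of dCD.

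**Figure D2:**
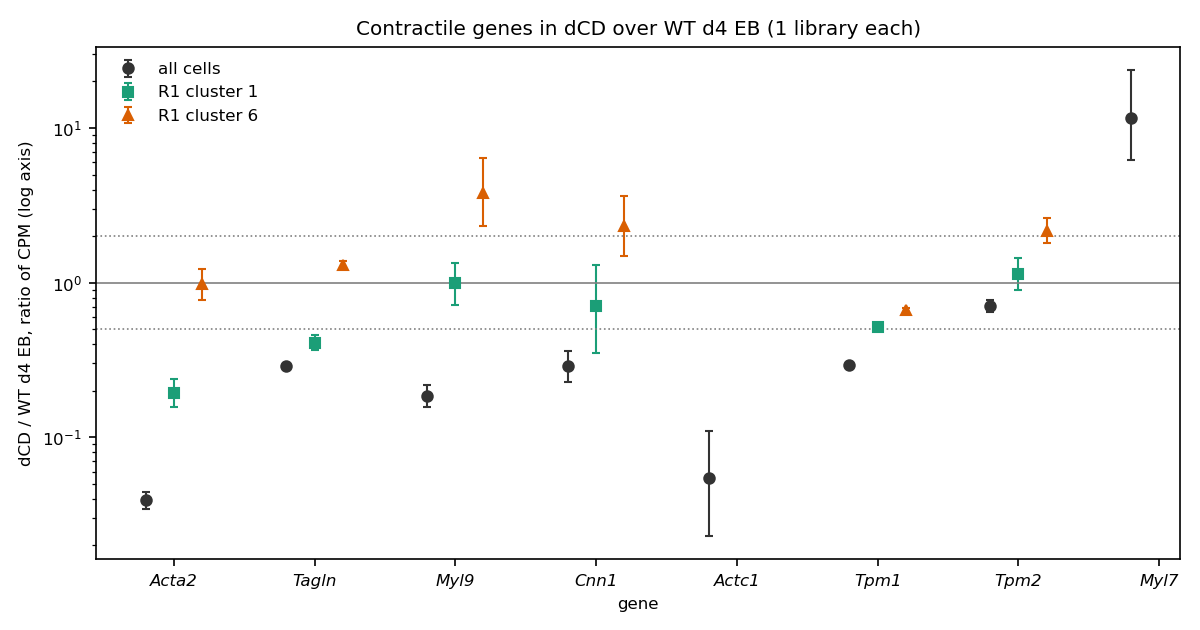
Ratio of CPM in dCD over WT d4 EB for each member on a log axis, over all cells, within cluster 1 and within cluster 6, with exact 95% intervals and dotted lines at 2-fold; members with under 10 UMIs over both libraries, or 0 UMIs in a library, are not drawn. Acta2 stood at 0.0391 over all cells, 0.194 in cluster 1 and 0.975 in cluster 6, and Myl7 was the member above 1 over all cells.

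**Figure D3:**
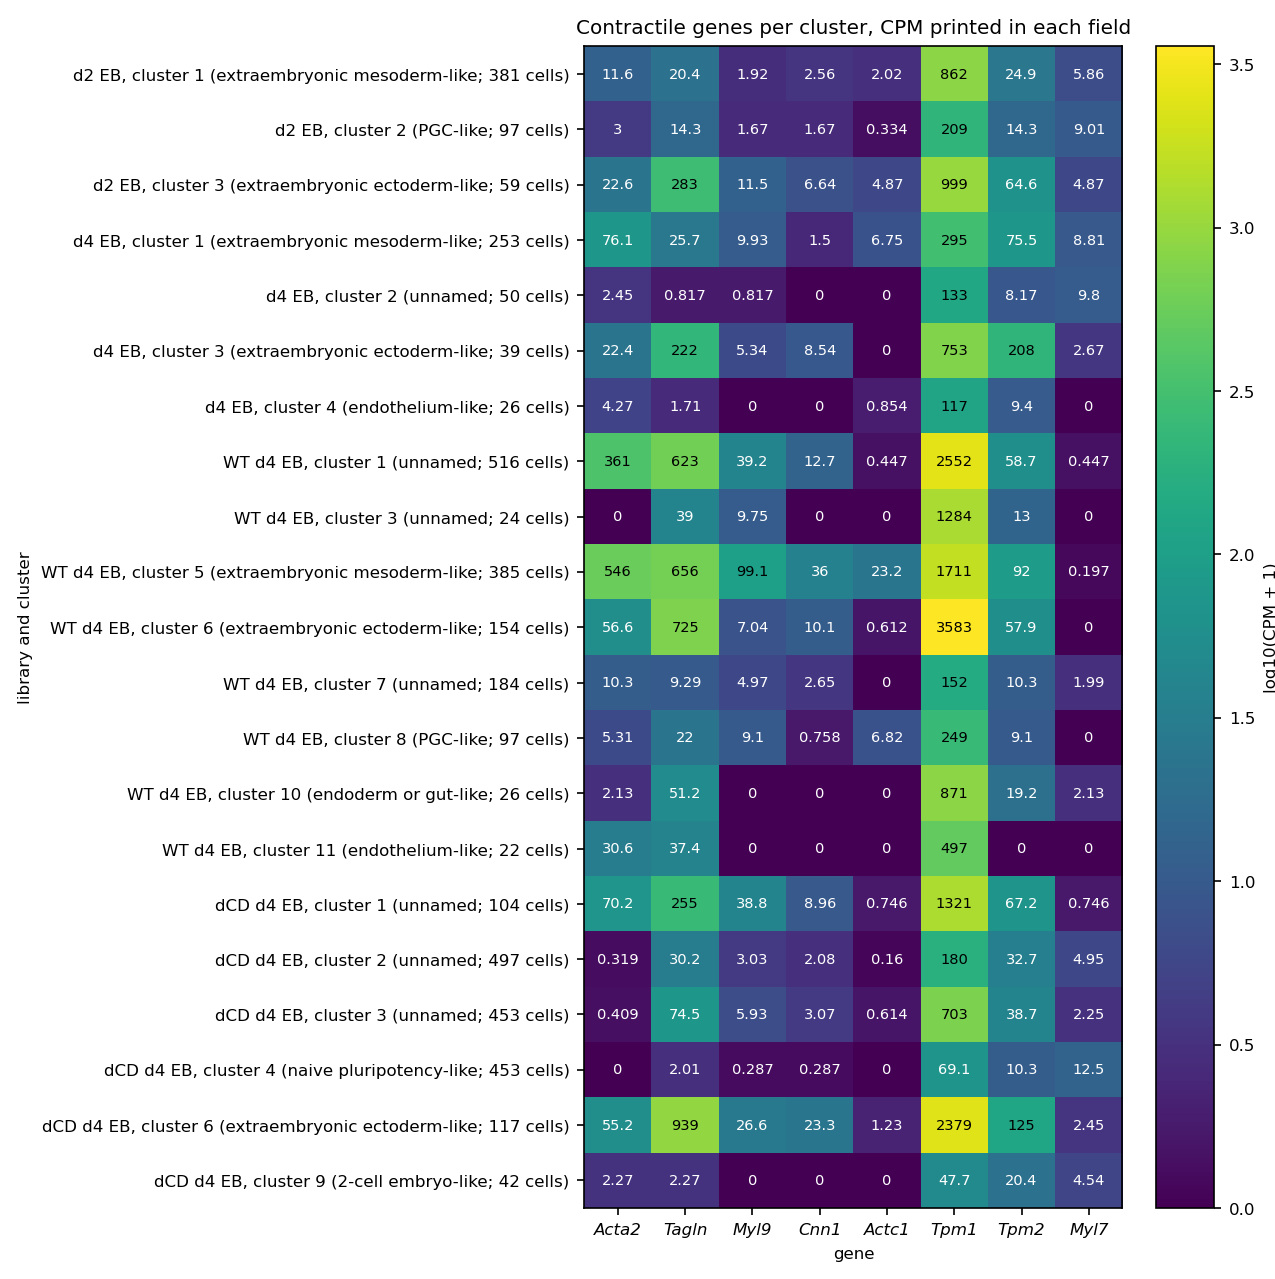
Heat map of member levels in CPM, printed in each field, for EB clusters with at least 20 cells of a library, coloured by log10 of CPM plus 1. Acta2 was highest in the mesoderm-like clusters of d4 EB (76.1 CPM) and WT d4 EB (546 CPM; the tables were made separately), and Tagln in the ectoderm-like clusters of d2 EB and d4 EB (283 and 222 CPM).

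The gain of Myl7 lay elsewhere. In dCD, cluster 4 had 12.5 CPM of Myl7 (10.0 to 15.4) and held 61.7% of its UMIs, and cluster 2 had 4.95 CPM. The same cluster 4 had 0 UMIs of Acta2, which allows up to 0.430 CPM, and 2.01 CPM of Tagln. Cluster 3, which led with the cardiac regulator Nkx2-5, had 2.25 CPM of Myl7 and 0.409 CPM of Acta2, but 74.5 CPM of Tagln and 703 CPM of Tpm1. In the E14Tg2a table, made separately, Myl7 was highest in S+L ESC, at 19.1 CPM. The next levels, 14.4 CPM in 2i ESC and 12.9 CPM in d2 EpiLC, were not separated beyond counting error. Clusters 1 and 6 carried 4.96% of the Myl7 UMIs of dCD.

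Markers of several cell types moved with the genotype, where 5.41% of all 11842 genes tested were lower and 7.45% higher in dCD. Not every marker class is listed here. Of 9 extraembryonic mesoderm markers, all tested, 0 were higher and 7 lower in dCD, with a summed level of 1470 CPM in WT and 413 CPM in dCD, Hand1 as the most abundant gene and none at 0. Of 7 naive pluripotency markers, all tested, 3 were higher and 0 lower, with 554 and 799 CPM in sum, Tbx3 as the most abundant and none at 0. Of 7 smooth muscle markers, 5 were tested and 3 were lower, from 73.4 to 36.9 CPM in sum, with Des as the most abundant and Actg2 at 0 in dCD. Of 9 cardiomyocyte markers, 3 were tested and all 3 were higher, from 9.57 to 34.5 CPM in sum, with Nkx2-5 as the most abundant and Nppa at 0 in dCD. Of 6 skeletal muscle markers, 1 was tested and did not pass, with 6.51 and 7.95 CPM in sum, Acta1 as the most abundant, Myog at 0 in WT and Myod1 at 0 in dCD. Of 9 extraembryonic ectoderm markers, 8 were tested, 3 were higher and 1 lower, from 1926 to 1406 CPM in sum, with Krt8 as the most abundant and Elf5 at 0 in WT; the lower gene was Hand1, which is also among the mesoderm markers and fell from 626 to 165 CPM. Of 9 endoderm or gut markers, 6 were tested, 3 were higher and 1 lower, from 153 to 368 CPM in sum, with Epcam as the most abundant and Afp at 0 in WT. Of 8 markers of the 2-cell embryo, 4 were tested and all 4 were higher, from 0.0486 to 42.2 CPM in sum, with Gm8300 as the most abundant and 7 at 0 in WT (Zscan4c, Zscan4d, Zscan4f, Zfp352, Tcstv1, Gm8300 and Usp17lc). Of 7 PGC markers, all tested, 1 was higher and 1 lower, from 148 to 220 CPM in sum, with Nanog as the most abundant and none at 0. The study also names Nanog as a naive pluripotency regulator, so this sum does not measure how many PGC-like cells each library held. Of 8 endothelium markers, 5 were tested and 2 were lower, from 61.5 to 50.9 CPM in sum, with Pecam1 as the most abundant and none at 0. No cluster met the naming rule for smooth, cardiac or skeletal muscle, so the cells that carried the members were not called muscle. The part of these markers in the change of the members was not tested.

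The wider contractile lists followed the members in part. Among all 11842 genes tested, 5.41% were lower and 7.45% higher in dCD. Of 16 other smooth muscle genes, 13 were tested and 6 were lower in dCD with 0 higher, with a median log2 ratio of -0.72. Cald1, which encodes caldesmon, went from 1023 to 402 CPM, a ratio of 0.393, but Pdlim7 had a ratio of 0.680 and the creatine kinase gene Ckb had 1.52. Of 25 other cardiac and striated muscle genes, 10 were tested, and 4 were higher and 3 lower. The troponin genes there split, with Tnnt3 falling to a ratio of 0.103 and Tnnt1 higher by 2.75-fold, and the light chain gene Mylpf was higher by 2.67-fold, from 48.2 to 129 CPM. The striated list thus had no common direction, as the members Actc1 and Myl7 had none.

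Among 22 non-muscle actin and myosin genes, all tested, 5 were lower and 1 higher in dCD, with a median of -0.71 on the log2 scale. The shares over all genes, for this and the lists below, were 5.41% lower and 7.45% higher. Actb, cytoplasmic β-actin, had a ratio of 0.595, Actg1, cytoplasmic γ-actin, had 0.741 and Tmsb4x, which encodes an actin monomer-binding thymosin, had 0.504, so none of these 3 passed 2-fold. Of 9 immediate early SRF targets, 8 were tested and 3 were lower, with Fos at 0.435, Junb at 0.560 and Ier2 at 1.14. Of 22 SRF partners and cardiac or mesoderm regulators, 19 were tested, 6 were lower and 1 higher, and the regulators Hand1, Hand2 and Gata6 had ratios of 0.264, 0.304 and 0.324. Of 11 mural cell and fibroblast genes, 9 were tested and 8 were lower, with a median of -2.10. In that list Col1a1, the chain of fibrillar collagen, went from 351 to 27.9 CPM, a ratio of 0.0796, and the pericyte gene Rgs5 had a ratio of 0.181 and Col1a2 had 0.498.

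The step from d2 EpiLC to d2 EB had more higher than lower genes among all genes, at 14.3% and 9.75%, which the counts of these lists do not take into account. Of the other smooth muscle genes 6 of 10 tested were higher and 0 lower, with Cald1 at 6.54-fold. Of the cardiac and striated genes 3 of 4 were higher, of the non-muscle genes 3 of 22, with 1 lower, about the share of all genes, and Tmsb4x stood at 4.02-fold. Of the regulators 10 of 14 were higher and 0 lower, and Hand1 went from 0 UMIs to 770 CPM, at least 2864-fold. Of the immediate early genes 5 of 7 were higher, with Fos at 40.7-fold (31.7 to 53.1), and of the mural and fibroblast genes 3 of 4 were higher and 1 lower. From d2 EB to d4 EB, 9.51% of the 9680 genes tested were higher and 3.52% lower. The mural and fibroblast genes were higher in d4 EB for 6 of 8 tested and lower for 0, with Col1a1 at 4.33-fold and Col1a2 at 30.5-fold. Of 9 extraembryonic mesoderm markers, 8 were tested in d2 EB over d2 EpiLC and all 8 were higher, from 2.33 to 1002 CPM in sum, with Hand1 as the most abundant and Hand1, Foxf1, Pitx1, Postn, Tbx20 and Hoxa10 at 0 in d2 EpiLC. Of 9 extraembryonic ectoderm markers, all 7 tested were higher, from 87.6 to 1897 CPM in sum, with Hand1 as the most abundant and at 0 in d2 EpiLC, and Elf5 at 0 in d2 EB. Of 8 primitive streak or nascent mesoderm markers, all 5 tested were higher, from 42.7 to 331 CPM in sum, with Fgf8 as the most abundant and Evx1 at 0 in d2 EpiLC. Of 7 naive pluripotency markers, 6 were tested and 5 were higher, from 53.3 to 345 CPM in sum, with Tbx3 as the most abundant and none at 0, and of 7 PGC markers, 5 were tested and 4 were higher, from 35.6 to 144 CPM in sum, with Dnd1 as the most abundant and Prdm14 at 0 in d2 EpiLC. In the same step, 4 endoderm or gut markers were tested, 1 was higher and 2 lower, from 490 to 211 CPM in sum. All 3 endothelium markers tested were higher, from 10.8 to 45.2 CPM. Cardiomyocyte markers had too few UMIs to be tested, with 13.4 and 7.99 CPM in sum. Of 2 smooth muscle markers tested 1 was higher, from 20.4 to 26.8 CPM. The 1 skeletal muscle marker tested was higher, from 3.85 to 24.4 CPM in sum. From d2 EB to d4 EB all 5 of the primitive streak or nascent mesoderm markers that were tested were lower, to 5.52 CPM in sum, while 6 of 7 endothelium markers tested were higher, from 45.2 to 269 CPM in sum, with Cldn5 as the most abundant and Emcn at 0 in d2 EB. Of the extraembryonic mesoderm markers, 5 were higher and 2 lower in d4 EB, from 1002 to 725 CPM in sum, with Hand1 still the most abundant. Of 7 smooth muscle markers, 2 were tested in d4 EB over d2 EB and both were higher, from 26.8 to 60.8 CPM in sum, with Des as the most abundant and none at 0. Of 9 cardiomyocyte markers, 1 was tested and was higher, from 7.99 to 23.4 CPM in sum, with Myl4 as the most abundant, Myh7 and Nppa at 0 in both and Myh6 at 0 in d4 EB. Of 6 skeletal muscle markers, 1 was tested and was lower, with 24.4 CPM in sum in d2 EB and 4.998 CPM in d4 EB, Acta1 as the most abundant, Myog and Pax7 at 0 in both and Myod1 and Myf5 at 0 in d4 EB. The part of any of these markers was not tested.

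Within single cells of WT, pairs of members differed widely in how far they were found together. After thinning, the Spearman rho over 1366 WT cells was 0.571 between Acta2 and Tagln, 0.479 between Acta2 and Myl9, 0.354 between Acta2 and Cnn1 and 0.655 between Tagln and Tpm1. Actc1, though lower in dCD as well, had a rho of 0.2501 with Acta2, 0.195 with Tagln and 0.0678 with Tpm1. Of the 41 thinned WT cells with Actc1, however, 37 also had Acta2, 39 had Tagln and 41 had Tpm1. Tpm2, which was not called, had a rho of 0.311 with Acta2. Tagln was present in 81.6% of the WT cells with Acta2 and in 35.3% of those without it. Over 331 cells of d4 EB in the E14Tg2a line, Acta2 had a rho of 0.280 with Tpm2, 0.203 with Myl9 and 0.0985 with Tagln, the lowest of these 3. In dCD, 18 of the 21 cells with Acta2 also had Tagln. Myl7 had a rho of -0.0035 with Acta2 in WT. These values are descriptions over cells that share a library and include differences between clusters.

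The genes whose pattern over cells was most like that of Acta2 in both d4 EB and WT d4 EB were Col1a1, Cnn2, Igfbp5, Flna, Abracl, Col3a1, Gata6, Pitx1, Col1a2 and Vcan, in that order among 9959 genes. Their Pearson r with Acta2 lay between 0.277 and 0.357 over d4 EB cells and between 0.359 and 0.545 over WT cells. Among the members, Myl9 came at number 16, Tpm2 at 58, Tagln at 290 and Tpm1 at 332. Cnn1, Actc1 and Myl7 were not ranked, as each was found in under 5% of the cells of d4 EB or of WT, the minimum set. Tagln had the highest r of all genes in WT, 0.680, but an r of 0.120 in d4 EB. Over the 8 E14Tg2a libraries, the genes most like Acta2 among 12270 were Lpp, Picalm, Hivep2, Fosl2 and Ska2, with r from 0.966 to 0.979, and Tagln came at number 42 with 0.919. Myl7, at -0.06, was the member least like Acta2 across libraries.

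The promoters were read for the SRF site because many contractile genes are SRF targets. Windows from 250 bases before to 50 bases after the RefSeq start were found for 7 of the 8 members on build GRCm38.p6, with no window for Tagln. The CArG box, searched on both strands, was matched to its exact consensus in 3 of these windows, those of Actc1, Myl9 and Myl7, and in 535 of all 32851 windows (1.63%). It began 47 bases before the start in Actc1, 161 bases before it in Myl9 and 61 bases before it in Myl7. The windows are shown on the strand of the gene, at chr2:114052826-114053125 on the minus strand for Actc1, chr2:156775214-156775513 on the plus strand for Myl9 and chr11:5898733-5899032 on the minus strand for Myl7, with the CArG box in capitals.
Actc1: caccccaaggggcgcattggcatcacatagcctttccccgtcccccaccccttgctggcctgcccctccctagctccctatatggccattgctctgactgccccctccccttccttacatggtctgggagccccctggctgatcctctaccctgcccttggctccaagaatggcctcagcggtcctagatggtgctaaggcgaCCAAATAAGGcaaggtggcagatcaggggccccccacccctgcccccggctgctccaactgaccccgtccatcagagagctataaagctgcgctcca
Myl9: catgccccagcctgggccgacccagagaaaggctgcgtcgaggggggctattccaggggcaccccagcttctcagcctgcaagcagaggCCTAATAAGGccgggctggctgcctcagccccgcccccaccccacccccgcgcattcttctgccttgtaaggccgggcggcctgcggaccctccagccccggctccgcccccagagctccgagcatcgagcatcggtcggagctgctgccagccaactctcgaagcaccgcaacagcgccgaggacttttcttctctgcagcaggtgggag
Myl7: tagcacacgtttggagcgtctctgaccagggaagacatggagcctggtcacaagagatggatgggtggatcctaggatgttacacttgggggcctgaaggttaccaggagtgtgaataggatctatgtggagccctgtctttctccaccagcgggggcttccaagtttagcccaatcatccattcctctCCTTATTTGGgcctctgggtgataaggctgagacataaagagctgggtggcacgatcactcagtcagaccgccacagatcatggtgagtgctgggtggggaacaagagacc
In dCD, Actc1 and Myl9 were lower and Myl7 higher, so members with the motif moved in both directions. A match describes letters in the window and is not a measured site, and only exact matches to the consensus were counted. Variant boxes that differ from it by a base were not searched for, so a window without a match, that of Acta2 included, may still hold a CArG box of that kind.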

How the data were processed

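The authors prepared single-cell libraries that read the 3′ end of transcripts and deposited UMI count tables of genes by cells. For the E14Tg2a line they mapped the reads to mm10 with Cell Ranger and aggregated 8 libraries after equalising mapped depth. The tool that made the R1 counts is not given in the sources used here, and the authors kept R1 cells with at least 2000 genes; no further cells were removed here. Doublets were called with Scrublet, 0.441% to 7.61% of the cells of a library, and were kept; leaving them out was an alternative. The 2782 E14Tg2a cells were assigned to stages by barcode suffix, as the study's supplement gives, and its list of 135 PGCLC barcodes was used. The members and the gene lists were chosen with earlier results of these data known.

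Counts were summed per library and divided by its total UMIs. Intervals are exact Poisson, conditional binomial or Clopper-Pearson intervals at 95%. A count of 0 was given the limit that 3 counts would set. For shares and co-occurrence, cells were thinned at random to the 10% quantile of UMIs per cell of the shallowest library of each table, and shallower cells were left out. Cells of d2 EB and d4 EB were grouped by k-means into 3 and 4 clusters on 20 principal components of 2000 variable genes, and R1 cells by shared nearest neighbours at resolution 0.3 on 10 components. A cluster was named from marker genes where the best class had a median fold of at least 2 and at least 3 markers passed it. It was left unnamed where its 10 leading genes held more markers of another class than of the best one. All members were named; of each other list the 3 genes with the highest summed CPM, and the 10 and 5 genes most like Acta2 over cells and libraries. A further marker class is not reported here. Genes that stood out in a cluster were named after their values were seen. Gene positions were taken from GENCODE M21 (GRCm38).

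Python 3.11.15, numpy 2.4.6, scipy 1.17.1, pandas 2.3.3, scikit-learn 1.9.0, scanpy 1.11.5 (Scrublet), anndata 0.12.19, matplotlib 3.10.9, R 4.3.3, Seurat 5.3.0 and Matrix 1.6.5 were used.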

Additional observations from a re-analysis of the deposited data

How the results depend on the processing

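A count was taken as unmoved where it stayed within 1.5 times of the main count, and a level, share or log2 ratio where it stayed within the main interval; the alternatives restricted to a single R1 cluster, or without the d4 EB cell with the most Myl7 UMIs, were chosen after seeing the data. By that rule 38 of 49 alternatives left a result unmoved, 11 moved it and 0 reversed it. Unmoved counts still changed by up to 2: members higher in d2 EB than in d2 EpiLC went from 3 to 2 with thinned cells, and members higher in d4 EB than in d2 EB from 2 to 3 with a 1.5-fold rule or the mean of each cell's own CPM. Members lower in dCD went from 6 to 5 with thinned cells, 4 with 10 CPM added and 7 without the PGC-like and extraembryonic ectoderm-like clusters, and the intervals of PGCLC ratios below 1 from 13 to 11 of 16 with k-means clusters. Leaving out doublets, or the cell with the most Myl7 UMIs, changed no count.

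Within cluster 1 alone 2 members, and within cluster 6 alone 0 members, were lower in dCD than in WT. In S+L ESC over 2i ESC, 0 members were higher, but 1 was with thinned cells, 1 with the 1.5-fold rule and 2 with no minimum of UMIs. The log2 ratio of Acta2 in dCD over WT was -4.68; it was -4.90 with the mean of each cell's own CPM, -8.39 without the 5% of cells with the highest member share, -6.05 without the PGC-like and extraembryonic ectoderm-like clusters, -2.36 in cluster 1 and -0.036 in cluster 6. The share of WT cells with Acta2 was 33.5% thinned and 38.3% unthinned, as unthinned cells carry more UMIs. For the other moves the cause was not tested. No paired analysis was possible because each condition was a single library.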
